A study of Mus musculus with 10 samples.

Results

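The YAP-TEAD pathway is described here by 10 mouse genes: the target genes Ccn1 (older name Cyr61), Ccn2 (older name Ctgf) and Ankrd1, the target and feedback genes Amotl2 and Lats2, the LATS regulator Ajuba, the coactivator genes Yap1 and Wwtr1 (encoding TAZ), and the DNA-binding factor genes Tead1 and Tead4. They were chosen by symbol from the 55335 genes of the count table, with earlier results of these data known. All 10 were found, and all 10 were among the 16167 genes that passed the filter on low counts. RNA was sequenced from 10 whole mammary tumours of about 1 cm in the FVB background. All tumours grew from mammary epithelial cells of virgin mice carrying Wap-Myc, in which the Wap promoter, active in pregnancy and lactation, drives Myc. These cells had been transduced with the doxycycline-inducible hepsin lentivirus pIND21-HPN at a multiplicity of 10 and transplanted into fat pads of hosts aged 3 weeks. The hosts of 5 tumours (DOX 1 to 5) were given doxycycline at 2 mg/ml in 5% sucrose from day 3 after transplantation, and the hosts of 5 control tumours (controls 1 to 5) drank sugar water. Myc was induced from 8 weeks of age by 2 pregnancies in both groups. Controls carried the construct as well, so doxycycline and hepsin induction cannot be told apart, and it is not stated that the 5 tumours of a group grew in different hosts. P-values therefore measure the spread between these tumours.

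The pathway is the nuclear end of the Hippo kinase cascade. MST kinases (Stk3, Stk4) with Sav1 activate the LATS kinases with their MOB1 cofactors, and LATS phosphorylates YAP and TAZ, which are then held in the cytoplasm or degraded. Unphosphorylated YAP and TAZ enter the nucleus, bind TEAD factors and switch on genes such as Ccn1, Ccn2 and Ankrd1, as well as Lats2 and Amotl2, whose products restrain the pathway. In the mammary gland TAZ has been linked to basal epithelial identity. Activity is set largely by phosphorylation and location of the proteins, which transcript counts do not measure.

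TEAD factors recognise the letters GGAATG, which read CATTCC on the other strand. The 250 bases before the RefSeq transcription start (GRCm38.p6) were available for 7 of the 10 members, and 6 of these 7 held the motif on at least 1 strand: Ccn1, Ankrd1, Amotl2, Ajuba, Yap1 and Wwtr1. The same letters were found in 12.6% of 32851 mouse RefSeq windows of this length. Lats2 had none in either of its windows, which says only that these letters are not there. The 8 sites are shown because they are the sequence feature that most members with a window shared, each as 30 bases read in the direction that gives CATTCC, with the motif in capitals.
Ccn1 (motif starting 103 bases before the start, chr3:145650071-145650100, minus strand): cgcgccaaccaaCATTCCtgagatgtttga
Ankrd1 (210 bases before, chr19:36120037-36120066, plus strand): atgtgagagggtCATTCCtttggcagtgac
Ankrd1 (123 bases before, chr19:36119950-36119979, plus strand): caggtgaattttCATTCCagacttagtgtc
Amotl2 (65 bases before, chr9:102717727-102717756, plus strand): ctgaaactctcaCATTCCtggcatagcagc
Ajuba (186 bases before, chr14:54577830-54577859, minus strand): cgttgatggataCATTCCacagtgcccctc
Ajuba (164 bases before, chr14:54577808-54577837, minus strand): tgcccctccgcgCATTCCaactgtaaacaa
Yap1 (141 bases before, chr9:8004720-8004749, plus strand): tgcgcgtcgctaCATTCCtgcagactcccg
Wwtr1 (136 bases before, chr3:57576029-57576058, plus strand): agcgcctatctgCATTCCtttgagtttacc
The Amotl2 site and both Ankrd1 sites lie inside the GENCODE span of their own gene, which begins upstream of the RefSeq start used here. The base after the motif was T at 5 sites and A at 3. A match is a description and not evidence of binding in these tumours. The full window of Ccn1 also carried a TATA box (letters TATAAA, found in 12.4% of windows) 25 bases before the start. No AP-1 motif (letters TGANTCA, in 6.75% of windows) and no CArG box (in 1.47%) was found in any member's window. The whole windows of Ccn1 and of Ajuba, a target with 1 motif and a gene with a pair of neighbouring motifs, follow in the sense of the gene, both on the minus strand.
Ccn1 (chr3:145649986-145650235): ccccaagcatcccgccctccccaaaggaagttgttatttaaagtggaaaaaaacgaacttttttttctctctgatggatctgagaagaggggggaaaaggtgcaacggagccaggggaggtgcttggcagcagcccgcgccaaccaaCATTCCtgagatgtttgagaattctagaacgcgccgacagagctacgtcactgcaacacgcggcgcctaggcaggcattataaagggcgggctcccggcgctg
Ajuba (chr14:54577662-54577911): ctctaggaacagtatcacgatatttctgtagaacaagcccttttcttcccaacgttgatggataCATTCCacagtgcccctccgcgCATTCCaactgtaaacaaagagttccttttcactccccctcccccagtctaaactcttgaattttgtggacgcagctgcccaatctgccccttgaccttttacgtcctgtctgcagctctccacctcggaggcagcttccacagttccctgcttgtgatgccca

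Libraries held 14256948 to 39358457 counts, DOX 3 being the deepest and the next 20469533. Mouse Hpn, the gene the construct is named for, was at 25.8, 25.1, 23.1, 14.2 and 20.4 CPM (read counts scaled to a common library total, with trimmed-mean factors) in controls 1 to 5 and at 26.5, 46.1, 25.1, 32.8 and 28.2 CPM in DOX 1 to 5. Its log2 fold change was 0.55 (SE 0.20, edgeR adjusted p = 0.247), and the species of the hepsin sequence in the construct is not given in the sources used here. Epithelial markers were present in every tumour, with summed levels of 1408 to 1940 CPM in controls and 1450 to 2106 CPM with doxycycline over 9 luminal genes.

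No member passed edgeR's quasi-likelihood test over all genes, which called 0 of 16167 genes (0.0%) at an adjusted p under 0.05. Over all genes 2592 (16.0%) had an unadjusted p under 0.05, 8.2% being higher with doxycycline and 7.83% lower. Among the members 4 of 10 had one, Lats2, Ajuba, Ccn2 and Wwtr1, all higher, and 0 were lower. The fitted log2 fold change was above 0 for all 10, with a median of 0.43 against 0.00 over all genes tested. For Amotl2 and Tead4 that sign turned when single tumours were left out, and for Tead4 the mean of log2(CPM + 1) was lower with doxycycline. In no member did every DOX tumour lie outside the control range, which happened in 2.94% of all genes. DESeq2 called Lats2 (adjusted p = 0.0285), where it called 1.99% of its genes in either direction and 1.3% as higher, and limma voom with sample weights called Ajuba (adjusted p = 0.0462), where it called 4.79% in either direction and 2.12% as higher. Voom's sample weights were 4.65 for DOX 3 and 0.465 for DOX 2, against 0.63 to 1.89 for the other tumours. Its calls, here and below, thus counted DOX 3 most and DOX 2 least. In bulk tumours, fewer cells of a type and less transcript per cell cannot be told apart.

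**Figure D1:**
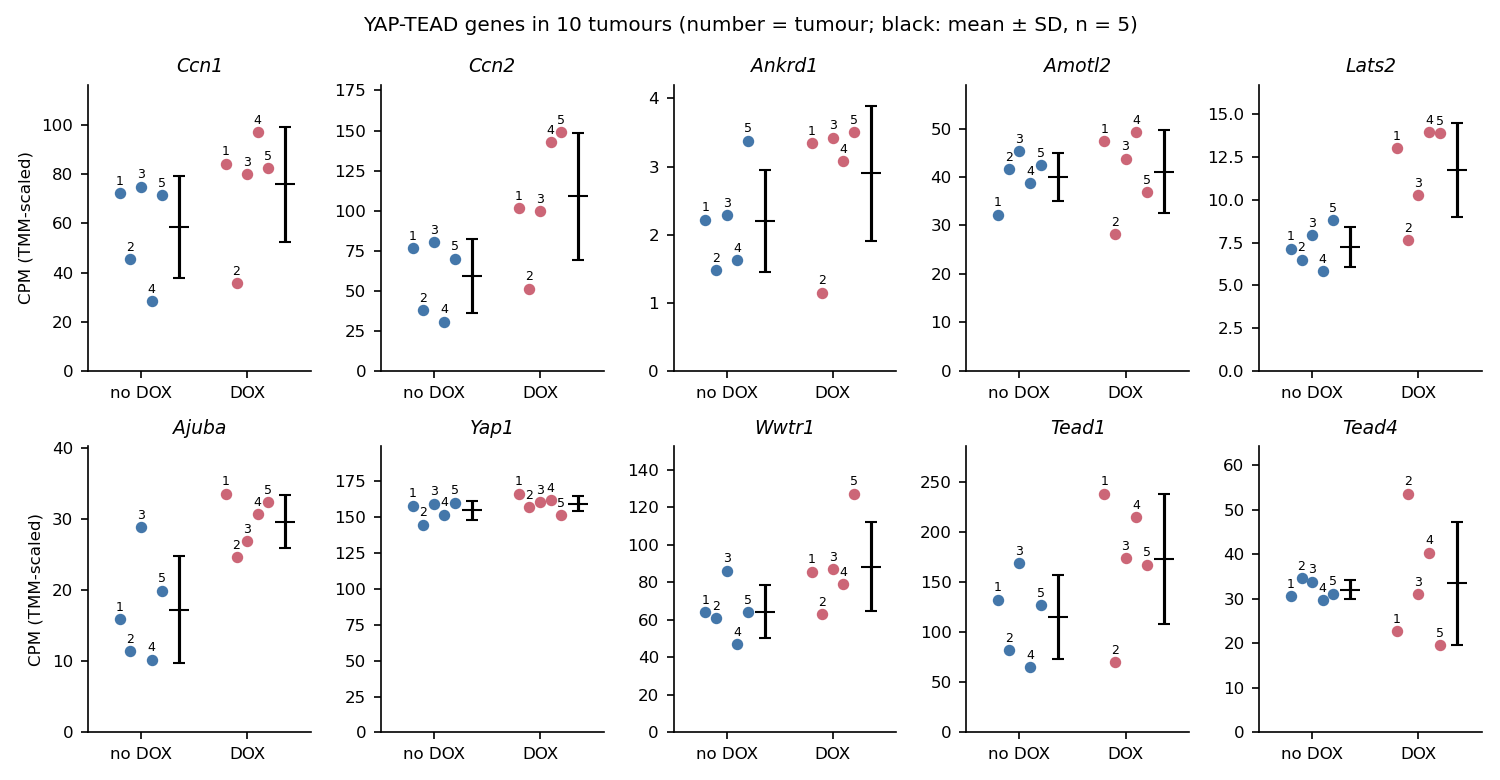
TMM-scaled CPM of the 10 members in each tumour, with controls (no DOX) in blue, DOX tumours in red, tumour numbers above the points and the mean ± SD (n = 5) in black. DOX 2 sits below the other DOX tumours for every member except Yap1 and Tead4. Yap1 stays between 145 and 166 CPM, and the group ranges overlap in all 10 panels.

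Ccn1 and Ccn2 encode secreted matricellular proteins of the CCN family and are the most used readouts of YAP and TAZ. Ccn2 (GRCm38 chromosome 10, 24595442 to 24598683, plus strand, protein coding) was at 76.7, 37.9, 80.5, 30.6 and 70.04 CPM in controls 1 to 5 and at 102, 51.3, 99.7, 143 and 149 CPM in DOX 1 to 5. In 4 of 5 DOX tumours it lay above the highest control, which held for 6.77% of all genes in at least 4 tumours, while DOX 2 lay within the control range. The means were 59.2 ± 23.2 and 109 ± 39.3 CPM (SD, n = 5), a log2 fold change of 0.88 (SE 0.33, edgeR adjusted p = 0.252). On log2(CPM + 1) the exact permutation p, two-sided, was 0.0794, where 5 against 5 tumours can reach 0.00794. With single tumours left out it ran from 0.0159 without DOX 2, the only one under 0.05, to 0.143 without DOX 4 or DOX 5. Without both control 4 and DOX 5 the exact permutation p was 0.286. For Ccn2, control 4 was the lowest tumour and DOX 5 the highest, so leaving out both narrows the difference. This setting, here and for the genes below, has fewer splits, and its smallest possible p is higher than 0.00794.

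Ccn1 (chromosome 3, 145646976 to 145649981, minus strand) was at 72.4, 45.4, 74.9, 28.3 and 71.5 CPM in controls and at 84.3, 35.7, 79.9, 97.03 and 82.3 CPM with doxycycline. The same 4 DOX tumours were above every control and DOX 2 was near the low end of the controls. Its log2 fold change was 0.37 (SE 0.30, 95% interval -0.29 to 1.04, edgeR adjusted p = 0.548), and the exact permutation p was 0.286. With single tumours left out the exact permutation p ran from 0.0476 without DOX 2 to 0.587 without control 4, and it was 0.714 without both control 4 and DOX 5. Ankrd1, encoding a nuclear ankyrin-repeat cofactor best known from striated muscle (chromosome 19, 36111961 to 36120099, minus strand), was the least abundant member, with 23 to 138 counts per tumour. It was at 2.22, 1.48, 2.29, 1.62 and 3.38 CPM in controls and at 3.35, 1.15, 3.42, 3.08 and 3.503 CPM in DOX tumours. DOX 2 was below every control, and the other DOX tumours were near the highest control. Its log2 fold change was 0.40 (SE 0.32, edgeR adjusted p = 0.541), and the exact permutation p was 0.270, with a range of 0.0317 without DOX 2 to 0.460 without control 2. Skeletal muscle markers, which could accompany Ankrd1, summed to 73.8 CPM in control 5, 76.8 CPM in DOX 1 and 39.9 CPM in DOX 3. Ankrd1 was at 3.38, 3.35 and 3.42 CPM in these tumours. In the others the markers summed to 4.44 to 9.46 CPM, including DOX 4 and DOX 5, where Ankrd1 was at 3.08 and 3.503 CPM. Of these markers 2 of 10 passed the filter, and their part in Ankrd1 was not tested.

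Lats2 and Amotl2 are targets whose products act back on the pathway. Lats2 encodes a kinase that phosphorylates YAP and TAZ (chromosome 14, 57689662 to 57758388, minus strand). It was at 7.15, 6.505, 7.95, 5.85 and 8.799 CPM in controls and at 13.01, 7.65, 10.3, 13.95 and 13.9 CPM in DOX tumours, 4 of 5 above the highest control. DOX 2 alone lay in the control range. The means were 7.25 ± 1.16 and 11.8 ± 2.74 CPM (SD, n = 5), a log2 fold change of 0.69 (SE 0.18, 95% interval 0.30 to 1.09, edgeR adjusted p = 0.196), and the exact permutation p was 0.0238. Its value came from 101 to 414 counts per tumour. Amotl2, encoding an angiomotin-family scaffold that binds YAP (chromosome 9, 102716672 to 102733418, plus strand), was at 32.2, 41.6, 45.3, 38.7 and 42.5 CPM in controls and at 47.4, 28.2, 43.8, 49.2 and 36.9 CPM with doxycycline. DOX tumours lay on both sides of the controls. The log2 fold change was 0.04 with a 95% interval of -0.29 to 0.36 (edgeR adjusted p = 0.922). Whether Lats2 and Amotl2 differed in their response was not tested.

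Ajuba encodes a LIM-domain scaffold that binds and inhibits LATS kinases (chromosome 14, 54567472 to 54577558, minus strand). It was at 15.9, 11.4, 28.8, 10.3 and 19.9 CPM in controls and at 33.6, 24.7, 26.9, 30.7 and 32.4 CPM with doxycycline. Control 3 reached into the DOX range, and the other controls were below every DOX tumour. Among the members Ajuba and Lats2 were those with an exact permutation p under 0.05, each at 0.0238 and not adjusted over the members. The share of all genes passing this exact test is not given here. By edgeR, 16.0% of all genes had an unadjusted p under 0.05. Without both control 4 and DOX 5 the exact permutation p was 0.0857 for each, with fewer splits. Control 4 was the lowest control for both genes. The Ajuba means were 17.3 ± 7.52 and 29.6 ± 3.75 CPM (SD, n = 5), a log2 fold change of 0.78 (SE 0.25, edgeR adjusted p = 0.238), and DOX tumours varied less among themselves (12.7% coefficient of variation) than controls did (43.5%). Ajuba in DOX 2 was above 4 of 5 controls.

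The coactivator genes differed from each other in how they varied. Yap1 (chromosome 9, 7931999 to 8004596, minus strand) was at 158, 145, 159, 152 and 160.1 CPM in controls and at 166, 157, 161, 162 and 152 CPM in DOX tumours. It was the steadiest member, with a coefficient of variation of 3.96% over the 10 tumours against 16.4 to 47.8% for the other 9. The log2 fold change of 0.04 had a 95% interval of -0.06 to 0.15 (edgeR adjusted p = 0.672). Wwtr1, encoding TAZ (chromosome 3, 57455649 to 57575910, minus strand), was at 63.99, 60.9, 86.2, 47.03 and 64.2 CPM in controls and at 85.8, 63.2, 86.9, 79.0 and 127 CPM with doxycycline. DOX 5 stood highest and control 4 lowest, while control 3 was as high as DOX 1 and DOX 3. Its log2 fold change was 0.46 (SE 0.19, edgeR adjusted p = 0.282), with an exact permutation p of 0.103. It was 0.0317 without control 3 or without DOX 2, 0.159 without DOX 5, where the difference of mean log2(CPM + 1) went from 0.44 to 0.30, and 0.371 without both control 4 and DOX 5, with a difference of 0.19. As a share of the summed Wwtr1 and Yap1 level per kilobase of exon, Wwtr1 took 37.5 to 51.2% in controls and 43.8 to 61.9% in DOX tumours.

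Tead1 and Tead4 encode factors that carry YAP and TAZ to DNA. Tead1 (chromosome 7, 112679318 to 112906807, plus strand) was at 133, 82.1, 169, 65.1 and 127 CPM in controls and at 239, 70.2, 174, 215 and 168 CPM in DOX tumours. DOX 2 was again low, close to control 4. The log2 fold change was 0.59 (SE 0.32, edgeR adjusted p = 0.388), with an exact permutation p of 0.190. With single tumours left out the latter ran from 0.0238 without DOX 2, the only one under 0.05, to 0.381 without control 4, and it was 0.457 without both control 4 and DOX 5. Tead4 (chromosome 6, 128224288 to 128300823, minus strand) was at 30.6, 34.6, 33.9, 29.7 and 31.2 CPM in controls and at 22.7, 53.6, 31.02, 40.4 and 19.6 CPM with doxycycline. The controls lay close together, and DOX tumours lay on both sides of them, with DOX 2 highest and DOX 5 lowest. The log2 fold change was 0.06 (95% interval -0.45 to 0.58, edgeR adjusted p = 0.912), and the coefficient of variation was 6.69% in controls and 41.4% with doxycycline.

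The other TEAD genes, Tead2 and Tead3, which are not among the members, averaged higher with doxycycline. Tead2 was at 28.2, 35.2, 29.7, 22.3 and 25.5 CPM in controls and at 43.1, 57.7, 38.5, 50.2 and 39.7 CPM in DOX tumours. All 5 DOX tumours, DOX 2 included, were above every control, as in 1.82% of all genes. Tead3 was at 22.6, 23.9, 29.02, 25.2 and 24.6 CPM in controls and at 28.3, 33.1, 31.6, 30.3 and 34.5 CPM with doxycycline. The log2 fold changes were 0.70 (SE 0.14) for Tead2 and 0.33 (SE 0.08) for Tead3, each with an edgeR adjusted p of 0.196. DESeq2 called both (adjusted p of 0.00265 and 0.0246) and so did limma voom (0.0352 and 0.0341), while neither tool called Tead1 or Tead4. Whether the TEAD genes differed from each other in their response was not tested. Summed over the 4 TEAD genes, the level was 27.0 ± 3.89 CPM per kilobase of exon in controls and 36.3 ± 4.01 in DOX tumours (SD, n = 5), with 4 of 5 DOX tumours above the highest control. This sum was formed after the values were seen and is given without a test. Tead1 took 13.95% of it in DOX 2 and 37.6 to 47.4% in the other DOX tumours, against 22.4 to 38.5% in controls. Tead4 took 40.2% in DOX 2, 17.02 to 26.7% in the others and 29.1 to 38.5% in controls.

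**Figure D2:**
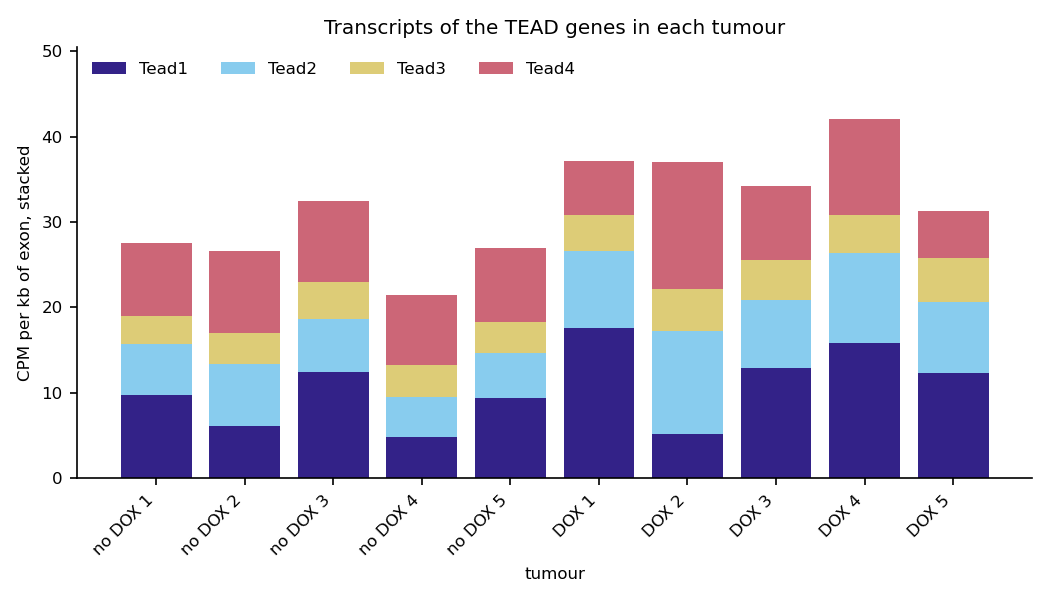
Stacked levels of the 4 TEAD genes in each tumour, in CPM per kilobase of annotated exon. Control tumours sum to between 21.5 and 32.4 and DOX tumours to between 31.2 and 42.1, and DOX 2 has the smallest Tead1 share (13.95%) and the largest Tead4 share (40.2%).

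Per kilobase of annotated exon, over all 10 tumours, the levels of the members ran from Ccn1 (33.3 ± 11.3 CPM per kilobase, SD) and Ccn2 (29.4 ± 14.03) through Yap1 (17.0 ± 0.672), Wwtr1 (16.0 ± 4.67), Tead1 (10.6 ± 4.40), Tead4 (9.10 ± 2.604), Amotl2 (6.45 ± 1.06) and Ajuba (6.43 ± 2.36) to Lats2 (1.36 ± 0.444) and Ankrd1 (0.883 ± 0.315). The order of neighbours held in all 10 tumours at 3 steps, Wwtr1 over Tead1, Ajuba over Lats2 and Lats2 over Ankrd1. At the other 6 steps it held in 4 to 8 tumours, so those neighbours, Tead1 and Tead4 among them, were not ordered beyond their spread. Tead4 was above Tead1 per kilobase in controls 2 and 4 and DOX 2. Exon lengths cover all annotated isoforms, so these levels are approximate.

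Most members varied together from tumour to tumour. Pearson correlations of log2(CPM + 1) over the 10 tumours were computed for all 45 pairs. At a permutation p adjusted over these pairs, 19 passed 0.05, and all 19 lay among 7 genes: Ccn1, Ccn2, Ankrd1, Lats2, Ajuba, Wwtr1 and Tead1. The coefficients of these 19 pairs ran from 0.72 to 0.95. Without the 2 tumours farthest from the median of the first gene they ran from 0.54 to 0.93. The closest pair was Ccn1 and Tead1 (r = 0.95, permutation p = 1e-05, the smallest these permutations can give, adjusted 0.00045; Spearman's rho = 0.95, permutation p = 0.00016, adjusted 0.0036), with r = 0.92 without the farthest 2 tumours. Ccn1 and Ccn2 gave r = 0.91 (permutation p = 0.00037, adjusted 0.00555) and rho = 0.95 (permutation p = 9e-05, adjusted 0.0036), and r = 0.93 without the farthest 2. Ccn2 and Lats2 gave r = 0.92 (permutation p = 0.00026, adjusted 0.00555) and rho = 0.93 (permutation p = 0.00031, adjusted 0.00465), and r = 0.88 without the farthest 2. By rank 17 of these 19 pairs passed. After each group was centred on its own mean, which removes the difference between groups, 12 of the 19 passed with the coefficients at 0.65 to 0.95. Amotl2, Yap1 and Tead4 were in none of the 19 pairs. By rank, however, Amotl2 with Tead1 and Yap1 with Tead1 (adjusted permutation p = 0.0334 each) and Amotl2 with Yap1 (0.0437) passed. With CPM scaled by library size only, Yap1 passed by Pearson's r with Ankrd1 (adjusted permutation p = 0.0293), Ccn1 (0.0341), Lats2 and Tead1 (0.0426 each). Tead4 had coefficients from -0.63 to 0.00 with the other members.

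**Figure D3:**
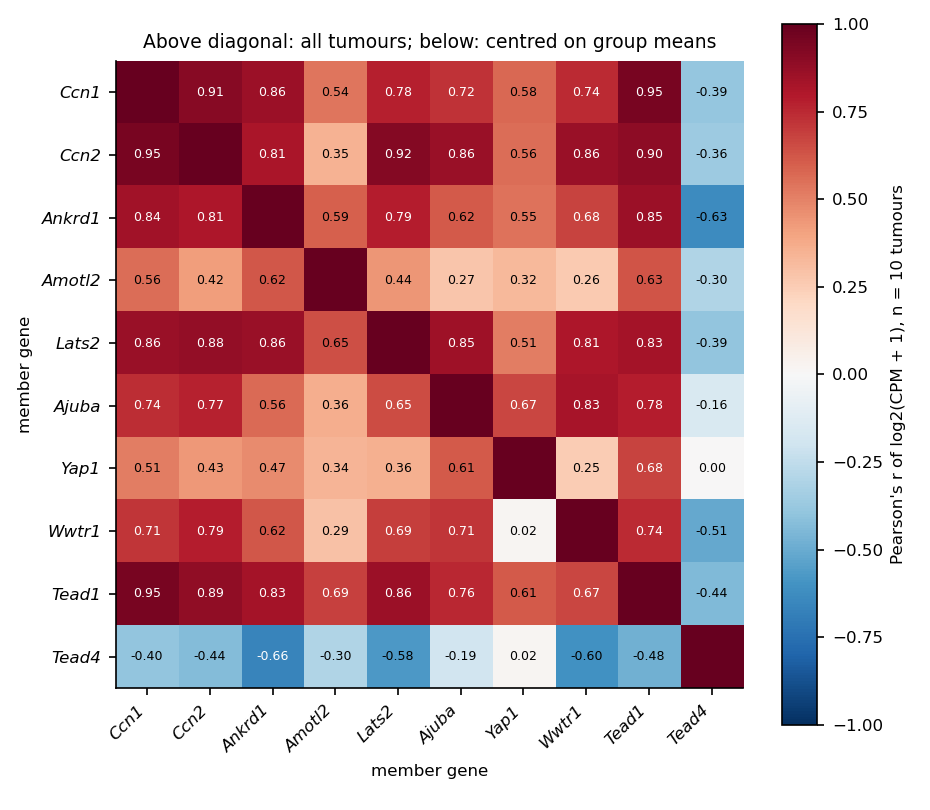
Pearson's r of log2(CPM + 1) between members over 10 tumours, above the diagonal for all tumours and below it after centring each group on its mean. The block of Ccn1, Ccn2, Ankrd1, Lats2, Ajuba, Wwtr1 and Tead1 is red on both sides, while the last column, Tead4, runs from -0.63 to 0.00.

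Many genes vary together in these tumours, so the coefficients were set beside those of 12714 other expressed genes. For Ccn1, 0.0708% of these genes had a coefficient as high as that of Tead1 and 0.558% as high as that of Ccn2, but 7.84% reached that of Ajuba and 18.6% that of Amotl2. For Ccn2, 0.692% of genes reached the coefficient of Lats2 and 0.802% that of Ccn1, but 5.03% reached that of Ankrd1, 19.8% that of Yap1 and 31.2% that of Amotl2. The genes most like Ccn1 were Dsel (r = 0.97), Carmn (0.96) and Flrt3 (0.96), with Carmn being a long non-coding RNA of smooth muscle and pericytes. Those most like Ccn2 were Tnfrsf12a (0.98), the receptor of the cytokine TWEAK, Ttbk2 (0.97) and Bmpr2 (0.97), a BMP receptor. Ankrd1 was most like Grb14 (0.96), Ptn (0.95) and Tagln (0.95), the last a smooth muscle actin-binding protein. These are the highest of 12715 genes searched over the same 10 libraries and are given as a description.

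Ccn1, Ccn2, Ankrd1, Wwtr1 and Tead1 had their 3 lowest levels in controls 2 and 4 and DOX 2. The other members did not follow this, Tead4 being highest in DOX 2 and Ajuba in DOX 2 lying above 4 of 5 controls. Basal and myoepithelial markers were also low in these 3 tumours, but their pattern parted from that of Ccn1 and Ccn2 in DOX 4. The 10 basal markers summed to 286, 101, 312, 86.2 and 256 CPM in controls 1 to 5 and to 368, 122, 274, 132 and 597 CPM in DOX 1 to 5. In DOX 4, with a basal sum of 132 CPM, below the other DOX tumours except DOX 2, Ccn1, Lats2 and Amotl2 were at their highest of all 10 tumours and Ccn2 at its second highest. The 16 further YAP-TEAD targets described below parted from Ccn1 and Ccn2 in DOX 4 as well. They summed to 699, 613, 776, 461 and 624 CPM in controls 1 to 5 and to 707, 567, 718, 553 and 931 CPM in DOX 1 to 5. All 10 basal markers had a fitted fold change above 0 (median log2 fold change 0.66), 2 had an unadjusted p under 0.05 and 0 were called by edgeR. Fibroblast markers went the other way, with 11 of 12 below 0 (median -0.90), 5 of them at an unadjusted p under 0.05. Their sums were 2114 to 4069 CPM in controls against 811 to 1817 CPM in DOX tumours, and mostly came from Col1a1, Col1a2 and Col3a1. Among the others, Fap and Dpt were near 0 (log2 fold changes of -0.01 and -0.09) and Pdpn was above it (0.68). The SRF and actin genes, whose transcription also follows cell tension, were above 0 in 10 of 10 (median 0.49), 4 of them at an unadjusted p under 0.05, as many as among the 10 members. Their sums were 4325, 3949, 4429, 3203 and 4636 CPM in controls 1 to 5 and 6410, 3707, 5285, 6226 and 4799 CPM in DOX 1 to 5. The 3 lowest were thus again in controls 2 and 4 and DOX 2, and DOX 4 was high. The immediate-early genes, which react to stimuli and to tissue handling, were above 0 in 12 of 16 (median 0.13, with 0 of them at an unadjusted p under 0.05). They summed to 726, 484, 644, 405 and 469 CPM in controls 1 to 5 and to 561, 398, 567, 706 and 680 CPM in DOX 1 to 5. DOX 2 and control 4 were thus lowest, and DOX 4 was the highest DOX tumour. TGF-beta targets, which share Ccn2 as a target but were counted here without it, were above 0 in 9 of 10 (median 0.28), and 4 were higher at an unadjusted p under 0.05. No listed marker of any cell type was at 0 in all tumours, and the part of these cell types and gene groups in the members' values was not tested. DOX 2, with the highest Hpn level (46.1 CPM), had the lowest Ankrd1 and Amotl2 levels of the 10 tumours.

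**Figure D4:**
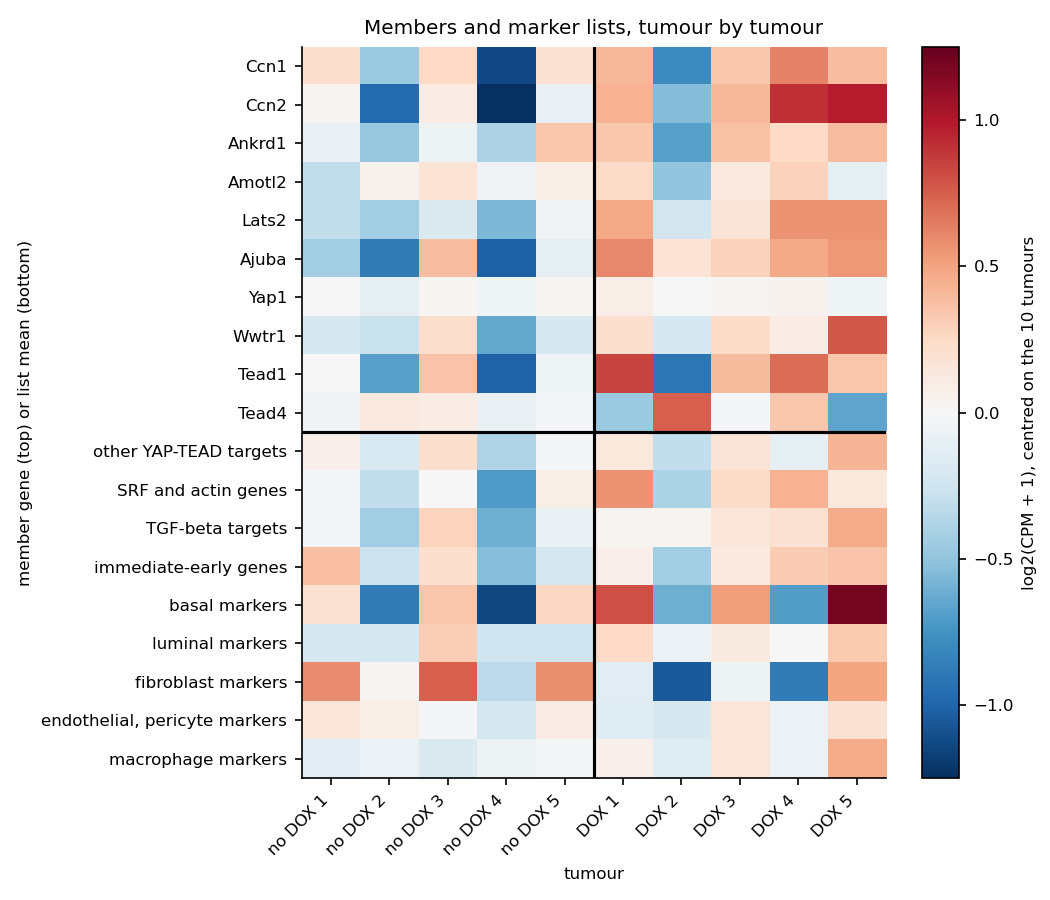
Log2(CPM + 1) of each member (top) and mean over each gene list (bottom), centred on the 10 tumours, in controls (left) and DOX tumours (right). Controls 2 and 4 and DOX 2 are blue for Ccn1, Ccn2 and Tead1 and for basal markers, whereas DOX 4 is red for these members and blue for basal and fibroblast markers. The other YAP-TEAD targets are at -0.12 in DOX 4.

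Among 21 upstream genes of the Hippo cascade, the fold change was above 0 for 17 and below for 4. The median was 0.10 on the log2 scale, and edgeR called 0. At an unadjusted p under 0.05 there were 3. Ptpn14, a phosphatase that restrains YAP, was at 43.6, 29.3, 62.1, 23.2 and 59.7 CPM in controls and 104, 47.2, 84.4, 83.1 and 82.7 CPM with doxycycline, 4 of 5 above the highest control (log2 fold change 0.88, SE 0.28, edgeR adjusted p = 0.238). Voom called Ptpn14 (adjusted p = 0.0484). Wwc2, a relative of the scaffold KIBRA, was at 83.3 ± 5.72 and 97.5 ± 14.8 CPM (SD, n = 5; edgeR adjusted p = 0.298). Dchs1, a large protocadherin, averaged lower at 19.2 ± 3.52 and 13.6 ± 2.79 CPM (edgeR adjusted p = 0.238). The core kinase genes Stk3, Stk4 and Lats1 and their cofactors Sav1, Mob1a and Mob1b had log2 fold changes of 0.07 to 0.18, and each 95% interval included 0.

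Of 16 further YAP-TEAD target genes 15 were tested. The fold change was above 0 for 10 and below for 5, the median being 0.12 on the log2 scale, and 1 had an unadjusted p under 0.05 with 0 called by edgeR, DESeq2 or voom. Arhgef17 was at 51.8, 29.5, 79.2, 22.9 and 50.9 CPM in controls and 87.4, 86.7, 78.2, 61.3 and 149 CPM with doxycycline (log2 fold change 0.98, SE 0.33, edgeR adjusted p = 0.241). Crim1, a membrane protein that binds BMP ligands, was at 17.0 ± 6.56 and 24.7 ± 8.34 CPM (SD, n = 5; edgeR adjusted p = 0.399). The receptor gene Axl and the coagulation factor gene F3, which the naming rule did not pick, were at 0.16 and 0.18 on the log2 fold change scale, chosen for mention with their values known, and their intervals included 0. Of the 4 other CCN genes 3 were tested, and Ccn3 was at 1.51 ± 0.766 and 2.16 ± 0.813 CPM and Ccn4 at 16.9 ± 5.77 and 12.9 ± 3.43 CPM (SD, n = 5; edgeR adjusted p of 0.477 and 0.476). Of the TEAD cofactor genes of the Vgll family, Vgll3 and Vgll4 were tested and had log2 fold changes of 0.07 and -0.11.

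**Figure D5:**
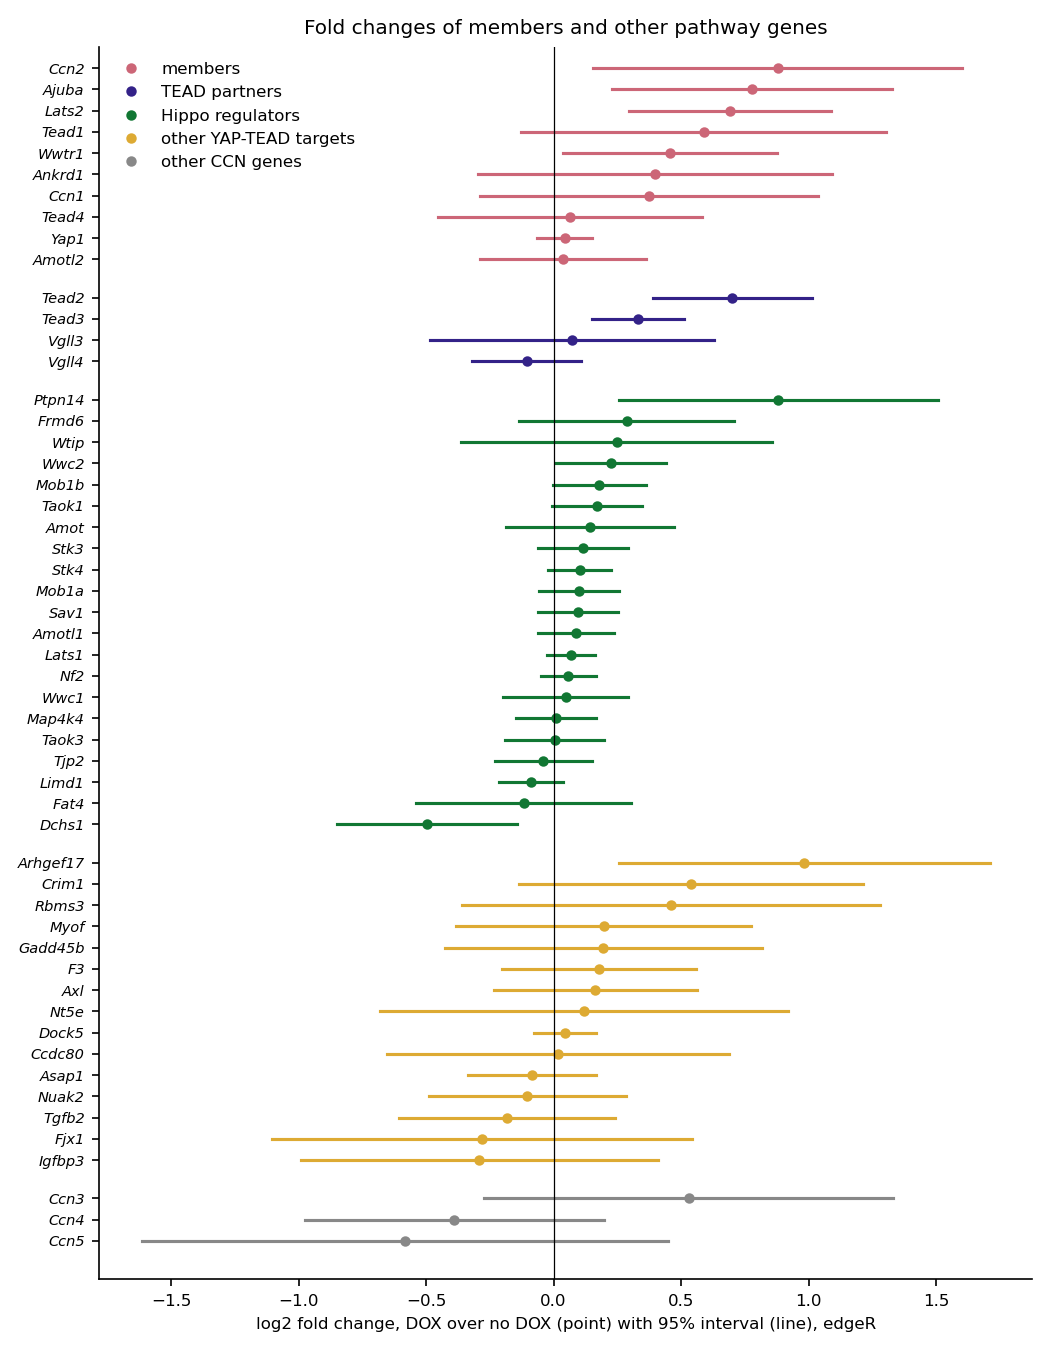
Log2 fold changes (DOX over controls) with 95% intervals from the edgeR fit for the members, TEAD partners, Hippo regulators, other YAP-TEAD targets and other CCN genes. Intervals of Ccn2, Ajuba, Lats2, Wwtr1, Tead2, Tead3, Ptpn14, Wwc2 and Arhgef17 lie above 0 and that of Dchs1 below, before any adjustment for the 16167 genes tested.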

How the data were processed

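The authors deposited raw read counts per Ensembl gene, not normalised, for 10 tumours. Per the labels' protocols, ribosome-depleted total RNA was made into directional libraries read single-end to 75 bp. The submitters' processing notes name STAR 2.6.0c, featureCounts and GRCm38, while annotation release and strand setting are not given in the sources. Xist held 418344 counts and its antisense gene Tsix 55, and antisense genes overlapping exons of Ccn2 and Yap1 held 41 and 5 counts. All 20 pairs within a group differed beyond counting noise (6.76 to 41.9 chi-square units per degree of freedom), so each tumour counted as 1 sample.

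Of 55335 identifiers, 55154 matched a symbol and GENCODE M21, which gave coordinates and exon lengths. Differences were tested with edgeR 4.0.16 in R 4.3.3 (TMM, filterByExpr with minimum count 10 and total 15, quasi-likelihood test, Benjamini-Hochberg over 16167 genes, threshold 0.05). On simulated counts with 200 changed genes, this fit recovered 31.5% of them at 1.5-fold, 63% at 2-fold and 92% at 4-fold, so smaller changes were often missed. Standard errors are the fold change over the square root of F. DESeq2 1.42.0, limma 3.58.1 voom and the settings named in the closing section were alternatives. Exact permutation tests are two-sided over the 252 splits of log2(CPM + 1), and correlations used 100000 permutations. The labels give same-numbered tumours only a shared number, so the main fit used no block. The members and lists were chosen with earlier results of these data known. Named genes were the members, Hpn, genes of the 4 pathway lists with an unadjusted p under 0.05 (or up to 2 with the smallest p), the 2 with the smallest p in each other list, and the 3 most like Ccn1, Ccn2 and Ankrd1 (without pseudogenes and predicted genes, from a group mean of 1 CPM upward). Counts of markers of endothelium and pericytes (4 of 14 above 0), macrophages (8 of 10), T and NK cells (1 of 7 tested), adipocytes (2 of 2 tested), skeletal muscle (1 of 2 tested) and luminal epithelium (8 of 9) are given here once, and none of these genes was called by edgeR.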

Additional observations from a re-analysis of the deposited data

Results flagged for a closer look

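Of 40 groups of 5 tumours, for the members, Hpn and 9 pathway genes, 2 had a tumour whose gap to its nearest neighbour was over 0.71 of the group's range, and about 1 in 20 groups is marked this way by chance. Both were DOX 2, at 35.7 CPM for Ccn1 and at 1.15 CPM for Ankrd1, below the other DOX tumours.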

How the results depend on the processing

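The number of genes called was 0 with edgeR and 305 with DESeq2, 775 with voom and 7 with the replicate block. Leaving out single tumours gave 0 to 37 genes, the highest without control 3, with 2 without DOX 2. DESeq2 and voom each called 1 member, and edgeR called 0 members under every other setting run, with the block and with each tumour left out (0 to 0). Deviations of same-numbered tumours correlated at 0.07 to 0.26. Differently numbered tumours were not compared, so these values cannot show whether the numbers pair the tumours. Of 400 fold changes under alternatives, 7 passed a threshold they had missed and 7 changed sign. The sign changed for Amotl2 without control 1 (-0.03), DOX 1 (-0.02) or DOX 4 (-0.0386; range to 0.14), and for Tead4 with voom (-0.0533), with the block (-0.0243), without DOX 2 (-0.18) or without DOX 4 (-0.01; range to 0.2045). The difference of mean log2(CPM + 1) changed sign for Amotl2 without control 1 (-0.0559), DOX 1 (-0.04), DOX 3 (-0.01) or DOX 4 (-0.05). For Tead4 it did so with library size only (0.0045), without control 2 (0.0013), DOX 1 (0.08) or DOX 5 (0.14), and without both control 4 and DOX 5 (0.11), its lowest value being -0.2159 without DOX 2. The causes were not tested. Without both control 4 and DOX 5, which leaves fewer splits, the exact permutation p of Lats2 and Ajuba was 0.0857 each. The exact sign-flip test of same-numbered pairs (the block) gave 0.0625 for Lats2, the smallest that 5 pairs allow, and 0.125 for Ajuba. Fold changes over tumours left out ran from 0.71 to 1.05 for Ccn2, 0.62 to 0.81 for Lats2, 0.64 to 1.03 for Ajuba and 0.19 to 0.55 for Ccn1, lowest without control 4. Ankrd1, with 23 to 138 counts, is the member most limited by depth.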

Other observations

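Beyond the pathway, the genes with the smallest p in each other list are given here, and none of them passed edgeR's adjusted test. The fibrillar collagen genes of fibroblasts averaged lower with doxycycline, Col1a1 at 1576 ± 465 and 709 ± 238 CPM (SD, n = 5) and Col1a2 at 930.5 ± 255 and 419.7 ± 134 CPM, with all 5 DOX tumours below every control for each. DESeq2 and voom called both (DESeq2 adjusted p of 0.00402 and 0.00237). Ski, a TGF-beta pathway repressor gene, was at 171 ± 17.6 and 209 ± 13.6 CPM with all 5 DOX tumours above every control, and Ltbp2, a matrix gene, at 116 ± 34.1 and 232 ± 98.2 CPM. DESeq2 called Ski (adjusted p = 0.0443), Ltbp2 (0.049) and Vwf (0.0375). Voom called Ski (adjusted p = 0.0405), Myh11 (0.047) and Cd163 (0.0428). The actin-binding genes Flna (629 ± 163 and 952 ± 223 CPM) and Zyx (53.9 ± 13.5 and 80.8 ± 21.9 CPM) each had 4 of 5 DOX tumours above the highest control.

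Elf5, a factor of luminal progenitors, averaged lower (126.5 ± 22.96 and 88.6 ± 19.1 CPM), while Cldn7 was at 36.1 ± 6.83 and 44.3 ± 5.37 CPM. The basal markers Myh11 and Krt15 were at 5.28 ± 1.70 and 10.2 ± 4.03 CPM and at 1.43 ± 0.653 and 4.23 ± 2.97 CPM. The log2 fold changes of the other genes with the smallest p in their list were 0.51 for Egr2, 0.73 for Egr3, -0.32 for Kdr, 1.58 for Vwf, 0.65 for Mrc1, 1.41 for Cd163, -0.69 for Cd3e, -0.49 for Cd4, 1.40 for Plin4, 0.05 for Fabp4, 0.06 for Mylpf and -0.01 for Mb.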
